A study of Homo sapiens with 21 samples.

Results

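The 36 genes described here belong to the unfolded protein response and the folding machinery of the endoplasmic reticulum (ER). They were taken by gene symbol from a fixed list, drawn up with earlier results of these data known although its rule names no measured value, and all 36 of them were among the 20423 genes of the deposited table of normalized counts. The list holds 6 stress sensors and transcription factors, 9 chaperones and cochaperones of the HSP70 and HSP90 systems, 2 lectin chaperones, 6 disulfide isomerases and oxidases, 8 genes of ER-associated degradation, 4 genes of the translocon and the COPII coat, and 1 ER membrane protein, WFS1.

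RNA was sequenced from THP1, a human monocytic line of acute myeloid leukaemia grown in serum-containing RPMI medium. IRF2BP2 knockdown cells carried 1 of 2 hairpins in the pLKO.1 vector, each with 3 libraries. JDP2 KO and ATF7 KO cells had received Lenti-CRISPRv2 constructs, and each knockout was represented by 2 single-cell clones with 2 libraries per clone. The references were 2 libraries of an shRNA control for the knockdown, 2 libraries of a KO control for both knockouts, and 1 library of wild-type cells. The JDP2 KO and ATF7 KO comparisons therefore share their 2 control libraries. A single-cell clone differs from its control by its descent from 1 cell as well as by the edit. The labels do not say whether libraries of a group came from separate cultures, so the p-values reflect variation among the libraries at hand, some of which may be technical.

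Proteins that are secreted or inserted into membranes fold in the ER with the help of chaperones such as BiP (encoded by HSPA5) and of enzymes that form disulfide bonds. When unfolded proteins accumulate, the sensors IRE1 (ERN1), PERK (EIF2AK3) and ATF6 are activated: IRE1 splices the XBP1 message into the form that encodes an active transcription factor, PERK lowers translation, and ATF6 is cut to release a transcription factor. XBP1 and ATF6 then switch on genes for chaperones, for export of misfolded proteins to the proteasome and for the secretory route. IRF2BP2 is a transcriptional corepressor, and JDP2 and ATF7 are basic leucine zipper factors that bind DNA elements of the AP-1 and CRE kind.

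The libraries held 28650241 to 60196382 reads in genes. The targeted gene checks the labels. IRF2BP2 had 9456, 11109.7 and 9802 normalized counts with shRNA 1 and 12587, 16649 and 25651 with shRNA 2, against 16973 and 18382 in the shRNA control. The library labelled IRF2BP2 shRNA 2 replicate 3 was thus above both control libraries, while the other 5 knockdown libraries were below them. Of those 5, shRNA 2 replicate 2, at 16649, stood close to the lower control at 16973. The shRNA 2 libraries therefore lay on both sides of the control, and loss of IRF2BP2 message is less clear for shRNA 2 than for shRNA 1. Both hairpins were still pooled as 1 knockdown group, by their labels. JDP2 message lay at 3158 to 5693 in JDP2 KO, against 3438 and 5085 in the KO control, and ATF7 message at 363 to 645 in ATF7 KO, against 300 and 537 in the KO control, so the knockouts cannot be checked from message levels, which a small edit need not lower. In 3 libraries (IRF2BP2 shRNA 1 replicate 3, the library labelled IRF2BP2 shRNA 2 replicate 3 and JDP2 KO clone 1 replicate 2) the share of genes beyond 2-fold of their median over libraries was 25.6% to 48.5%, against 3.18% to 14.8% in the other 16, so counts and members that turn on them are also given without them. All 12 myeloid markers examined averaged at least 10 normalized counts, and the T and B cell markers CD3D, CD3E, CD3G and MS4A1 had a median of 0. The summed level of the myeloid markers ranged from 57329.7 to 207999 in the knockdown, against 35872 to 42972 in the shRNA control, with the wild type at 105174 inside the knockdown range, and from 37669 to 70142 in JDP2 KO and 34155 to 79878 in ATF7 KO, against 47773 to 60152 in the KO control. Its part in the results was not tested, and in bulk RNA fewer cells of a kind and less RNA per cell cannot be told apart.

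Promoter sequences show which members carry the elements that ATF6 and XBP1 are known to bind. RefSeq (GRCh38.p14) gave windows of 300 bases, from 250 before the transcription start to 50 from it on, for 32 of the 36 genes, 7 of them with more than 1 start, and 5 motifs were searched on both strands. The ER stress response element (ERSE: CCAAT, any 9 bases, CCACG) was found in 8 of 32 members, or 25.0%, against 0.0916% of 27305 genes (XBP1, HSPA5, HSP90B1, CRELD2, CALR, CANX, PDIA6 and ERO1B). Its short form ERSE-II (ATTGG, any 1 base, CCACG) was found in HYOU1, SDF2L1 and HERPUD1, or 9.38% of members, against 0.0696% of genes. The UPRE core TGACGTGG occurred in 1 member, HYOU1, where it overlaps an ERSE-II (3.13% of members, against 0.927% of genes). The CRE TGACGTCA occurred in 1 member, CREB3L2, against 2.25% of genes, and the TRE (TGACTCA or TGAGTCA) in 1 member, SEC61B, against 6.05% of genes. A match describes letters and not a bound site. The members were listed as genes of the response that ERSE and ERSE-II serve, so their higher share is no result of these data. The windows below are examples, those of 7 of the 13 members that hold a motif. The other members with a motif, among them CREB3L2, HSP90B1, HERPUD1 and CANX, are not printed. Each window is read 5′ to 3′ on the gene's strand, with the fixed letters of the motif in capitals: the ERSE of HSPA5 (chr9:125241294-125241593, minus strand), XBP1 (chr22:28800520-28800819, minus strand), CRELD2 (chr22:49918384-49918683, plus strand) and CALR (chr19:12938359-12938658, plus strand), the ERSE-II of SDF2L1 (chr22:21642052-21642351, plus strand), the pair of ERSE-II and the UPRE core of HYOU1 (chr11:119057156-119057455, minus strand), and the TRE of SEC61B (chr9:99222032-99222331, plus strand).
HSPA5: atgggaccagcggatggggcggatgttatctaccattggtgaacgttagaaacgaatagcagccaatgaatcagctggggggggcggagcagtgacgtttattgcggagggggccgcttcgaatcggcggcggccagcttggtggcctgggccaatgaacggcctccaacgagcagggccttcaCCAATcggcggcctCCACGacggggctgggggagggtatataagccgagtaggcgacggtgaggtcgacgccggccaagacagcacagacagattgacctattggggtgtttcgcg
XBP1: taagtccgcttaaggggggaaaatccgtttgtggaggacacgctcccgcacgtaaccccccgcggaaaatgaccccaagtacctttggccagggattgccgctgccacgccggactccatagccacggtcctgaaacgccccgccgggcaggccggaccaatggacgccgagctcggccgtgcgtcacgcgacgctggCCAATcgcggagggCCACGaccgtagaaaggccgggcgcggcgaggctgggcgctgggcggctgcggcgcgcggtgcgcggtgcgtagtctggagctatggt
CRELD2: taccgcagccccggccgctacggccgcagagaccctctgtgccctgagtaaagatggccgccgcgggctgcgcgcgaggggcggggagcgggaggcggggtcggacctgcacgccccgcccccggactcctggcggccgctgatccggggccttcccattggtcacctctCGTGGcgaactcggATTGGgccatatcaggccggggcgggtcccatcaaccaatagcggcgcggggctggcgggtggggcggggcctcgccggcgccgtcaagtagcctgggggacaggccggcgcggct
CALR: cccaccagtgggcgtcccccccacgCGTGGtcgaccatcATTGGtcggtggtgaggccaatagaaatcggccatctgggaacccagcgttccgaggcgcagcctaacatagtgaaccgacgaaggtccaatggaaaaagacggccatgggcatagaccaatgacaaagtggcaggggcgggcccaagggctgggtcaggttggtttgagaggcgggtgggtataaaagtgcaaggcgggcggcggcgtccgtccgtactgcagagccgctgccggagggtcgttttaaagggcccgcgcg
SDF2L1: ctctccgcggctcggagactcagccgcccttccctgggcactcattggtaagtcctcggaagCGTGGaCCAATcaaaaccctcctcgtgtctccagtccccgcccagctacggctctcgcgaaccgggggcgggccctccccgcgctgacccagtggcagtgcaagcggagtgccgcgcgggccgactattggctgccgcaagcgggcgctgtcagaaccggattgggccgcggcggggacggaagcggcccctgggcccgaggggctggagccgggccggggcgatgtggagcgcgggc
HYOU1: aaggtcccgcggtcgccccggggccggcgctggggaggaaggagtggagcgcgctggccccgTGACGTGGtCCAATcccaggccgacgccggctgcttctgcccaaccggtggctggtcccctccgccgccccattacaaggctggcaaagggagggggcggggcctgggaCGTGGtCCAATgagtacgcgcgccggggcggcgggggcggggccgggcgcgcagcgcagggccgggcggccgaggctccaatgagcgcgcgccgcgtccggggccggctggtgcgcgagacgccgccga
SEC61B: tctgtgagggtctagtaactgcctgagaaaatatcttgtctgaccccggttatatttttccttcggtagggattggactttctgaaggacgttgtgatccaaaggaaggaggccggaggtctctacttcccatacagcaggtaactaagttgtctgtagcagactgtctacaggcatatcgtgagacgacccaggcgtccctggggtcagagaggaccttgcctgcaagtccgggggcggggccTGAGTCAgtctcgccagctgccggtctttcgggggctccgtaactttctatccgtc
In CRELD2, CALR, SDF2L1 and HYOU1 the ERSE or ERSE-II is read on the opposite strand, so the capitals there are its reverse complement. Measured to its first letter, the ERSE began 66 bases before the start in HSPA5, 52 in XBP1 and 225 in CALR, and the TRE of SEC61B spans the start itself.

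Levels per kilobase of exon, averaged over the 5 control libraries, spanned a wide range among the 36 genes. CALR, which encodes the lectin chaperone calreticulin, stood at 37959 ± 6529 normalized counts per kilobase (SD, n = 5), rank 24 of 11976 genes, and P4HB, a protein disulfide isomerase, at 30916 ± 5447, rank 30. The ranges of these 2 genes over the control libraries overlapped. HSPA5 followed at 5343 ± 1689, rank 236, and overlapped PDIA4, HSP90B1, SEC61B and XBP1. Of the sensors, ATF6 stood lowest at 35.8 per kilobase, rank 9423. WFS1, an ER membrane protein involved in calcium handling, was close to absent, at 0.746 per kilobase and rank 11961. The plot of levels per kilobase shows that most members lie between these ends.

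**Figure D1:**
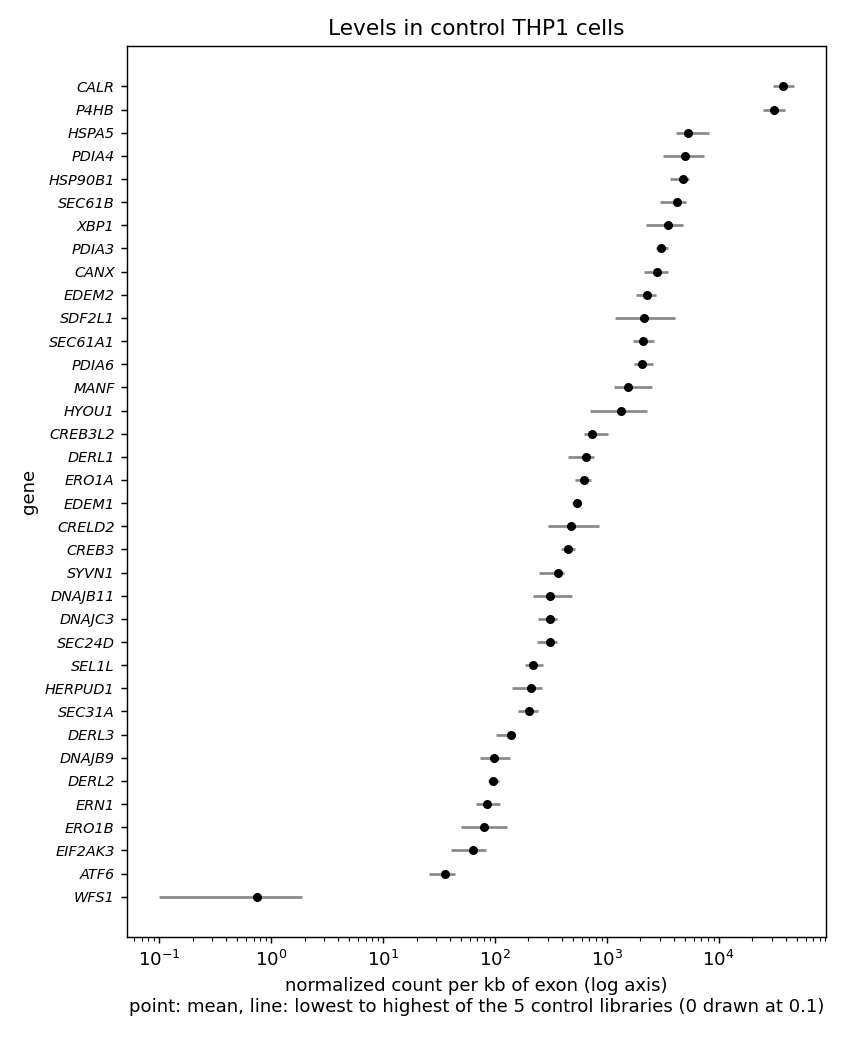
Normalized count per kilobase of exon on a log axis for the 36 genes in control THP1 cells, as the mean (point) and the lowest to highest (line) of the 5 control libraries. CALR at 37959 and P4HB at 30916 stand highest and overlap each other, while WFS1 stands at 0.746.

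Together the 36 genes held 0.939% to 1.51% of all normalized counts in the IRF2BP2 knockdown, against 1.18% and 1.20% in the shRNA control. They held 1.63% to 1.91% in JDP2 KO and 1.53% to 1.80% in ATF7 KO, against 1.23% and 1.30% in the KO control, and wild-type cells stood at 1.41%. The knockdown libraries thus lay on both sides of their control, while all 8 knockout libraries were above all 5 control libraries. CALR and P4HB alone made up 0.935% to 1.44% in JDP2 KO and 0.888% to 1.14% in ATF7 KO, against 0.681% and 0.728% in the KO control. The other 34 genes made up 0.472% to 0.743% in JDP2 KO and 0.482% to 0.725% in ATF7 KO, against 0.553% and 0.577% in the KO control, and there the groups overlapped.

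**Figure D2:**
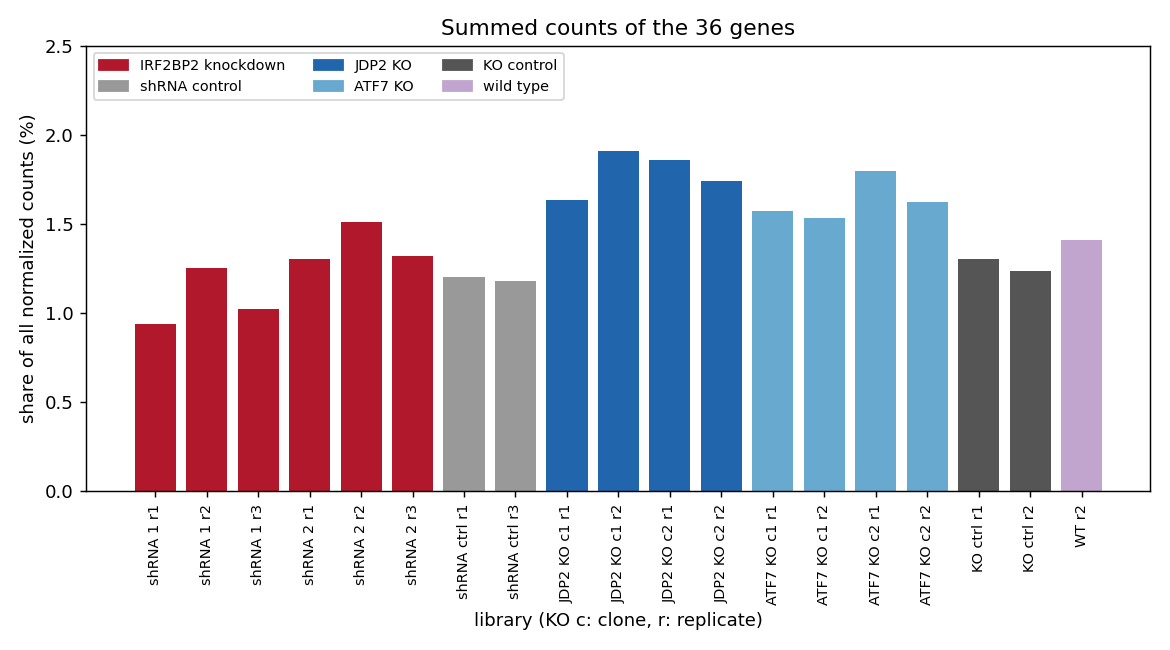
Share of all normalized counts that fell on the 36 genes, in percent, in each of the 19 libraries, 1 bar per library. The 8 JDP2 KO and ATF7 KO libraries lie between 1.53% and 1.91%, above the 5 control libraries at 1.18% to 1.41%.

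IRF2BP2 knockdown was compared with the shRNA control on log2(normalized count + 1) with limma, for genes averaging at least 10. None of the 35 members tested passed an adjusted p of 0.05, with 1.79% of all 12738 genes called. At an unadjusted p under 0.05 there were 4 members of 35, and 1781 of all genes. By edgeR 0 members were called, with 0.973% of all genes called, and 5 were at that unadjusted p, beside 14.4% of all genes. By DESeq2 1 member was called, DERL3, with 5.4% of all genes called. The members' median log2 change was 0.24, with 27 of 35 above 0, beside a median of -0.03 and 47.9% above 0 for all genes. Against all 5 control libraries the median was 0.14, with 20 of 35 above 0. The member with the lowest p was DERL3.

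DERL3, one of the derlins that form the channel through which misfolded proteins leave the ER, is on chromosome 22 at 23834503 to 23839006 (minus strand). It had 223, 171 and 34.5 normalized counts with shRNA 1 and 191, 212 and 182 with shRNA 2, against 566 and 518 in the shRNA control. All 6 knockdown libraries lay below both control libraries, and also below the wild type at 579.8 and the KO control at 580.3 and 388. The means were 169 ± 68.5 (SD, n = 6) in the knockdown and 542 ± 34.0 (SD, n = 2) in the shRNA control, a ratio of 0.311. The log2 change was -1.88 with an SE of 0.59 and an adjusted p of 0.155 in limma, so it missed the threshold. Without IRF2BP2 shRNA 1 replicate 3, the lowest library, it passed in limma, with a log2 change of -1.47 and an adjusted p of 0.00818, and without all 3 distant libraries the change was -1.45 with an adjusted p of 0.00197. Against all 5 control libraries the change was -1.83 with an adjusted p of 0.00786, and it stayed under the threshold in each of 11 fits that left out 1 library. In the authors' deposited table DERL3 fell by 1.48 on the log2 scale. In JDP2 KO it had 374, 835, 632 and 662 and in ATF7 KO 564, 687, 533 and 555, against 580.3 and 388 in the KO control, so there the groups overlapped.

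The other derlins were measured beside it. DERL2 had 848 to 1196 normalized counts in the knockdown (median 903), against 618 and 701 in the shRNA control, with no overlap. DERL1 had 2208 to 5718 (median 4294) in the knockdown, against 5435 and 4334 in the shRNA control, and overlapped it. SEL1L, the scaffold of the ER ubiquitin ligase, had 2366, 3621, 4137, 3760.2, 3047 and 2884 in the knockdown, against 1772 and 2212 in the shRNA control, a log2 change of 0.71 with an SE of 0.31 and an adjusted p of 0.320 in limma. Every knockdown library was above both control libraries, though the lowest stood close to the higher control. HERPUD1, which recruits parts of the degradation complex, had 1136 to 3044 in the knockdown (median 1524), against 1125 and 921 in the shRNA control, again with no overlap.

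Among chaperones, HSPA5 had 18136, 26016, 20745, 30373, 33527 and 37109 normalized counts in the knockdown, against 16352 and 16422 in the shRNA control. All 6 were above both control libraries, but the KO control at 32039.8 and 17923 and the wild type at 21671 fell within the knockdown range. The log2 change was 0.71 with an SE of 0.40 and an adjusted p of 0.468 in limma. DNAJB9, a BiP cochaperone that restrains IRE1, had 312, 509, 684, 441, 689 and 811 in the knockdown, against 234 and 305 in the shRNA control, with the lowest knockdown library just above the higher control. Its log2 change was 1.03 with an SE of 0.37 and an adjusted p of 0.227 in limma. DNAJC3, a further BiP cochaperone, had 2022, 3031, 5272, 2563, 2961 and 2955 in the knockdown, against 1364 and 1946 in the shRNA control, without overlap, a log2 change of 0.88 with an SE of 0.36 and an adjusted p of 0.294. All 9 members of the HSP70 and HSP90 group had a log2 change above 0, from 0.17 to 1.03, but against all 5 control libraries HYOU1 and CRELD2, at -0.16 each, and SDF2L1, at -0.03, were below 0.

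The sensors gave no call in the knockdown. ERN1 had 576, 825, 735, 705, 813 and 1351 normalized counts, against 801 and 967 in the shRNA control. EIF2AK3 had 420.1, 595, 850.1, 589, 646 and 431, against 334 and 455 in the shRNA control. ATF6 had 283, 482, 800.5, 416, 402 and 269, against 263 and 311 in the shRNA control. Each of these 3 overlapped its control, with log2 changes of -0.13, 0.55 and 0.53. XBP1 had 9912, 9019.5, 4686, 10109.9, 11425 and 10065, against 14655 and 8320.1 in the shRNA control, whose 2 libraries differed widely; the log2 change was -0.32 with an adjusted p of 0.777 in limma. The counts are per gene, so spliced and unspliced XBP1 message were not separated.

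In all, 6 members were higher in every knockdown library than in both shRNA control libraries (HSPA5, DNAJB9, DNAJC3, HERPUD1, SEL1L and DERL2), where 11.1% of all genes were, and DERL3 was lower, where 11.2% were. Without shRNA control replicate 3 the count of higher members was 12 and of lower members 2, with 19.9% and 22% of all genes. Against all 5 control libraries DNAJC3 and DERL2 were higher without overlap, with 6.25% of all genes, and DERL3 lower, with 5.24%; the higher count was 6 without IRF2BP2 shRNA 1 replicate 1, with 8.33% of all genes, and 4 without the wild type, with 6.89%. Against all 5 control libraries, limma called 5 members of 35, with 12.3% of all genes called. DNAJB9 rose by 1.00, DNAJC3 by 0.79, DERL2 by 0.67 and SEL1L by 0.63 on the log2 scale, with adjusted p of 0.0204, 0.0348, 0.0195 and 0.0443, and DERL3 fell. That count was 1, with DERL3 alone, without shRNA control replicate 1, with 6.69% of all genes called. It was 2 without KO control replicate 1 or the wild type, with 7.23% and 8.11% of all genes, and 3 without KO control replicate 2, IRF2BP2 shRNA 1 replicate 2 or IRF2BP2 shRNA 2 replicate 2, with 9.57%, 8.65% and 9.2%. Without the 3 distant libraries it was 6, with EIF2AK3 added (log2 change 0.71, adjusted p 0.0383) and 17.2% of all genes called. Against the shRNA control alone, the same omission gave 2 calls, DERL3 and DNAJB11 (0.80, adjusted p 0.0287), with 10.1% of all genes called. The authors' deposited table, which calls 17.5% of genes, lists 8 of 36 members, with EIF2AK3, CREB3, DNAJB9, DNAJC3, HERPUD1, SEL1L and DERL2 higher and DERL3 lower.

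**Figure D3:**
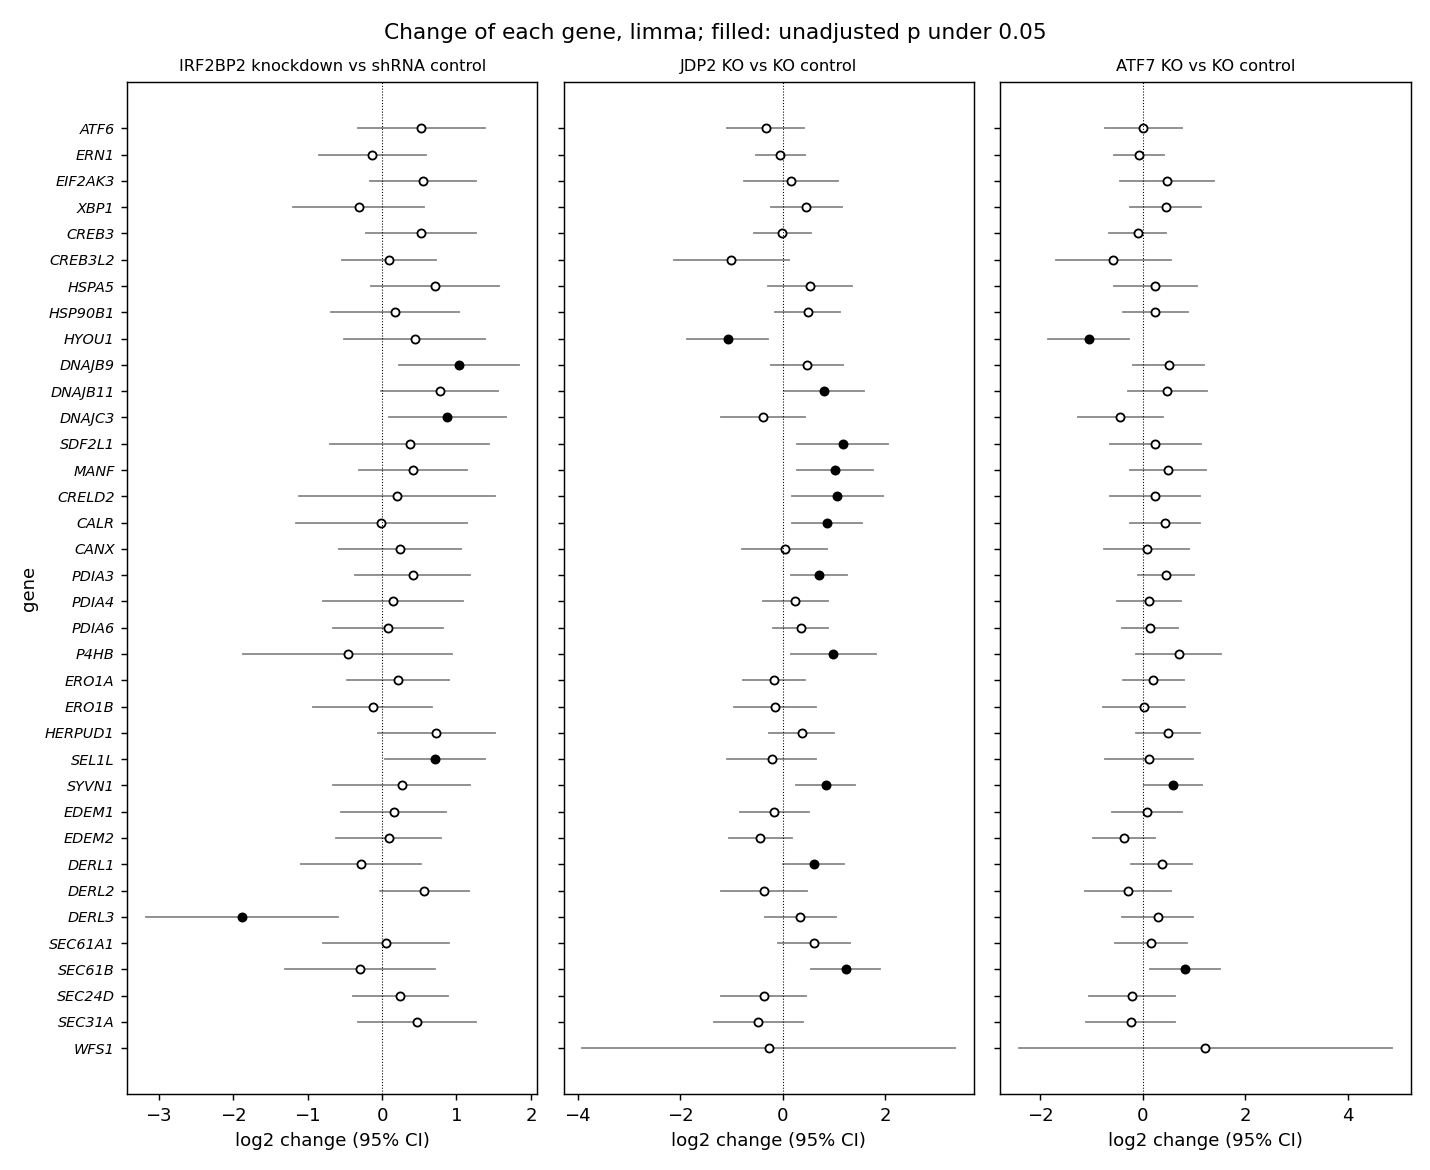
The log2 change with its 95% confidence interval (line) for each gene in limma, in IRF2BP2 knockdown against the shRNA control and in JDP2 KO and ATF7 KO against the KO control. Filled points have an unadjusted p under 0.05, and none of them passed the adjusted threshold; the knockdown panel has DERL3 at -1.88, and both knockout panels have HYOU1 below -1 and SEC61B above 0.8.

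No member passed the test in limma in JDP2 KO, where the 2 KO control libraries were themselves far apart. In limma 0 of 36 members were called, with 0.674% of 13208 genes called; at an unadjusted p under 0.05 there were 11 of 36, or 16.8% of all genes. By edgeR 0 members were called, with 0.924% of all genes called, and 9 were at that unadjusted p, beside 16.4% of all genes. By DESeq2 2 members were called, SEC61B and PDIA3, with 4.61% of all genes called. The members' median log2 change was 0.29, with 21 of 36 above 0, beside a median of 0.0049 and 50.3% above 0 for all genes. Without KO control replicate 2 the members' median was 0.11.

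SEC61B, the small beta subunit of the channel through which new proteins enter the ER, had 9293, 16333, 10216 and 8092 normalized counts in JDP2 KO, against 5806 and 3532 in the KO control. The wild type at 6050.2 and the shRNA control at 5908 and 4011 were also below all 4. Its log2 change was 1.22 with an SE of 0.31 and an adjusted p of 0.126 in limma. SYVN1, the ubiquitin ligase HRD1 of ER-associated degradation, had 2644, 3860.0, 3016 and 3142 in JDP2 KO, against 2261 and 1368 in the KO control, a log2 change of 0.83 with an SE of 0.26 and an adjusted p of 0.200. Again no control library reached the lowest JDP2 KO library.

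MANF, a secreted ER stress protein that binds BiP, had 7343, 10774, 9509 and 6266 in JDP2 KO, against 6083 and 2754 in the KO control. The groups did not overlap, but the higher control was close to the lowest knockout library; the log2 change was 1.02 with an SE of 0.34 and an adjusted p of 0.215. SDF2L1, a BiP-associated cochaperone with an ERSE-II in its promoter, had 4822, 11032, 6155 and 4763 in JDP2 KO, against 4497 and 1742 in the KO control. CRELD2, an ER disulfide isomerase-like protein with an ERSE, had 5209.7, 11834, 5942 and 4395 in JDP2 KO, against 4447 and 2054 in the KO control, and there the higher control exceeded the lowest knockout library. In all 3 genes JDP2 KO clone 1 replicate 2, one of the distant libraries, was the highest.

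The lectin chaperones and 2 of the isomerases follow. CALR had 155977, 283525, 195912 and 165607 normalized counts in JDP2 KO, against 127254 and 90096 in the KO control. PDIA3, the isomerase that works with calreticulin, had 18556, 27079.6, 21354 and 23759, against 15084 and 12649 in the KO control. P4HB had 200934, 498202, 233785 and 299260.3, against 159854 and 133206 in the KO control, though the wild type at 208537 exceeded the lowest JDP2 KO library. None of these 3 overlapped the KO control. CANX, the membrane-bound partner of CALR, had 26456, 10724, 26566 and 18902, against 16222 and 22061 in the KO control, and overlapped it.

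HYOU1, an HSP70-like nucleotide exchange factor for BiP with a pair of ERSE-II, was lower than its control. It had 9999.9, 4699, 9895 and 6867 normalized counts in JDP2 KO and 11076, 6711, 8536 and 5344 in ATF7 KO, against 17715 and 14169 in the KO control. The log2 change was -1.08 with an SE of 0.37 and an adjusted p of 0.217 in JDP2 KO, and -1.05 with an SE of 0.37 and an adjusted p of 0.451 in ATF7 KO. All 8 knockout libraries lay below both KO control libraries. The wild type at 7327 and the shRNA control at 6824 and 5441 fell within the knockout range, so the KO control was the highest of the controls. CREB3L2, a membrane-bound transcription factor related to ATF6, had 4850.3, 1100.2, 4891 and 3354 in JDP2 KO and 5556, 3482, 5017 and 2987 in ATF7 KO, against 6594 and 5729.6 in the KO control, with no overlap in either comparison. In JDP2 KO it was also below the wild type at 8978 and the shRNA control at 5474 and 5896.

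Taken over all libraries, the sensors and HSPA5 overlapped the KO control in both knockouts. HSPA5 had 44773, 25687, 45073 and 27599.7 normalized counts in JDP2 KO and 37904, 22244, 36572 and 21385 in ATF7 KO, against 32039.8 and 17923 in the KO control. In each clone and in the control the library numbered 1 was the higher one, and each knockout library was above the KO control library of its own number. The log2 change was 0.53 with an SE of 0.38 in JDP2 KO and 0.25 with an SE of 0.38 in ATF7 KO, and without KO control replicate 2 the ATF7 KO value turned to -0.17. XBP1 had 13145, 17085, 12921 and 10730.1 in JDP2 KO and 12682, 10896, 13921 and 15719 in ATF7 KO, against 13844 and 6726 in the KO control. Its log2 changes of 0.46 and 0.45 also turned, to -0.06 and -0.07, without KO control replicate 2, the lower control library.

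ERN1 had 764, 854, 739.7 and 786 in JDP2 KO and 723, 812, 698 and 875 in ATF7 KO, against 741 and 890.0 in the KO control. EIF2AK3 had 394, 144, 378 and 329 in JDP2 KO and 343, 264, 559 and 336 in ATF7 KO, against 219.5 and 309 in the KO control. ATF6 had 257, 160.4, 305 and 160.4 in JDP2 KO and 296, 225, 304 and 264 in ATF7 KO, against 204 and 350.2 in the KO control. The log2 changes of these 3 sensors ran from -0.33 to 0.47 over both knockouts, with overlap in each case.

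Counted over all 36 members, 10 were higher in every JDP2 KO library than in both KO control libraries (HSP90B1, DNAJB9, SDF2L1, MANF, CALR, PDIA3, P4HB, SYVN1, DERL1 and SEC61B), where 13.0% of all genes were. The members CREB3L2, HYOU1 and EDEM2 were lower, where 13.8% of all genes were. Without KO control replicate 1 the counts were 18 higher and 8 lower, with 28.7% and 30.3% of all genes. Set against all 5 control libraries, 7 members were higher (HSP90B1, SDF2L1, MANF, CALR, PDIA3, SYVN1 and SEC61B), with 7.36% of all genes, and CREB3L2 was lower, with 6.18%; without KO control replicate 1 these counts were 12 and 2, with 10.8% and 8.03%. In that larger comparison limma called 8 of 36 members, all higher, with 7.08% of all genes called in either direction and 3.86% called higher. SDF2L1 rose by 1.55, CRELD2 by 1.45, MANF by 1.24 and SEC61B by 1.10 on the log2 scale, with adjusted p of 0.0188, 0.0228, 0.0176 and 0.0209. DNAJB11, a BiP cochaperone, rose by 1.03, CALR by 0.93, PDIA3 by 0.79 and SYVN1 by 0.66, with adjusted p of 0.0330, 0.0292, 0.0238 and 0.0450. The count was 0 without shRNA control replicate 3 or without KO control replicate 2, with 0.988% and 0.764% of all genes called. It was 5 without JDP2 KO clone 1 replicate 2, JDP2 KO clone 2 replicate 1 or the wild type; the 5 calls without the first of these were MANF, SEC61B, PDIA3, SDF2L1 and CRELD2. The shares of all genes called in these 3 fits were 2.16%, 2.55% and 1.64%. The authors' deposited table, which calls 12.1% of genes, lists 10 of 35 members, with HSPA5, HSP90B1, DNAJB11, SDF2L1, MANF, CRELD2, CALR, PDIA3 and SEC61B higher and CREB3L2 lower.

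With genes in 3 equal classes of exon length, the median log2 change in JDP2 KO was 0.28 in the shortest class and -0.20 in the longest. For members of those classes it was 0.47 and -0.28. In the middle class, which holds 16 members, it was -0.03 for all genes and 0.43 for members. In JDP2 KO clone 1 replicate 2, a distant library, the medians of the shortest and longest class over all genes were 0.61 and -0.39 relative to the controls. Without it they were 0.17 and -0.12 in JDP2 KO, and 0.44 and -0.06 for members. The middle class then had 0.02 for all genes and 0.44 for members. Relative to the controls, JDP2 KO clone 1 replicate 1 stood at 0.02 and -0.01 in the shortest and longest class. In ATF7 KO the medians of the shortest and longest class were 0.19 and -0.07 for all genes, and 0.36 and -0.03 for members. Those of the middle class were 0.02 for all genes and 0.25 for members. After each library was centred on genes of similar length, a step chosen after the data were seen, limma called 8 members in JDP2 KO and 7 in the knockdown against all 5 control libraries, with 6.65% and 13.5% of all genes called. Among members with an ERSE or ERSE-II, 9 of 11 had a log2 change above 0 in JDP2 KO (median 0.46), and among the other 21 members searched 9 had (median -0.05). In ATF7 KO the numbers were 10 of 11 (median 0.25) and 14 of 21 (median 0.13), and in the knockdown 8 of 11 (median 0.21) and 17 of 20 (median 0.34). These counts are descriptions without a test.

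ATF7 KO gave no call among the members. In limma 0 of 36 members were called against the KO control, with 0.25% of all genes called, and 3 had an unadjusted p under 0.05, beside 7.09% of all genes. Neither edgeR nor DESeq2 called a member, with 0.25% and 1.91% of all genes called. At that unadjusted p they had 2 and 4 members, beside 6.56% and 8.65% of all genes. The members' median log2 change was 0.23, with 27 of 36 above 0, beside 0.04 and 53.0% for all genes, and it lay at 0.05 without KO control replicate 2 and at 0.35 without KO control replicate 1.

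SEC61B had 8215, 7162, 8383 and 8552 normalized counts in ATF7 KO, against 5806 and 3532 in the KO control, with the wild type and the shRNA control also below all 4. Its log2 change was 0.83 with an SE of 0.31 and an adjusted p of 0.534 in limma. SYVN1 had 2903, 2542, 2583 and 2628, against 2261 and 1368 in the KO control, a log2 change of 0.60 with an SE of 0.26 and an adjusted p of 0.672. P4HB had 195971, 272959.6, 189733 and 315109.6, against 159854 and 133206 in the KO control, a log2 change of 0.70 with an SE of 0.38 and an adjusted p of 0.739. All 3 were without overlap, but P4HB in the wild type, at 208537, stood above 2 of the 4 ATF7 KO libraries.

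In every ATF7 KO library 5 members were higher than in both KO control libraries (PDIA3, P4HB, ERO1A, SYVN1 and SEC61B), where 7.82% of all genes were, and CREB3L2 and HYOU1 were lower, where 10.6% were. Without KO control replicate 1 these counts were 18 and 6, with 26.0% and 24.7% of all genes, and without KO control replicate 2 they were 9 and 4, with 20.5% and 20.9%. Without ATF7 KO clone 1 replicate 2 the higher count was 9, with 11% of all genes, and without ATF7 KO clone 1 replicate 1 the lower count was 4, with 13.6%. Against all 5 control libraries 3 members were higher (PDIA3, SYVN1 and SEC61B), with 2.22% of all genes, and 0 were lower, with 2.55%. The count of 3 was 8 without KO control replicate 1 and 5 without ATF7 KO clone 1 replicate 2, with 4.34% and 4.41% of all genes, and the count of 0 was 2 without ATF7 KO clone 1 replicate 1, with 4.71%. By limma 0 members were called against all 5 control libraries, with 0.0231% of all genes called. The authors' deposited table, which calls 0.315% of genes, lists 0 of 36.

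**Figure D4:**
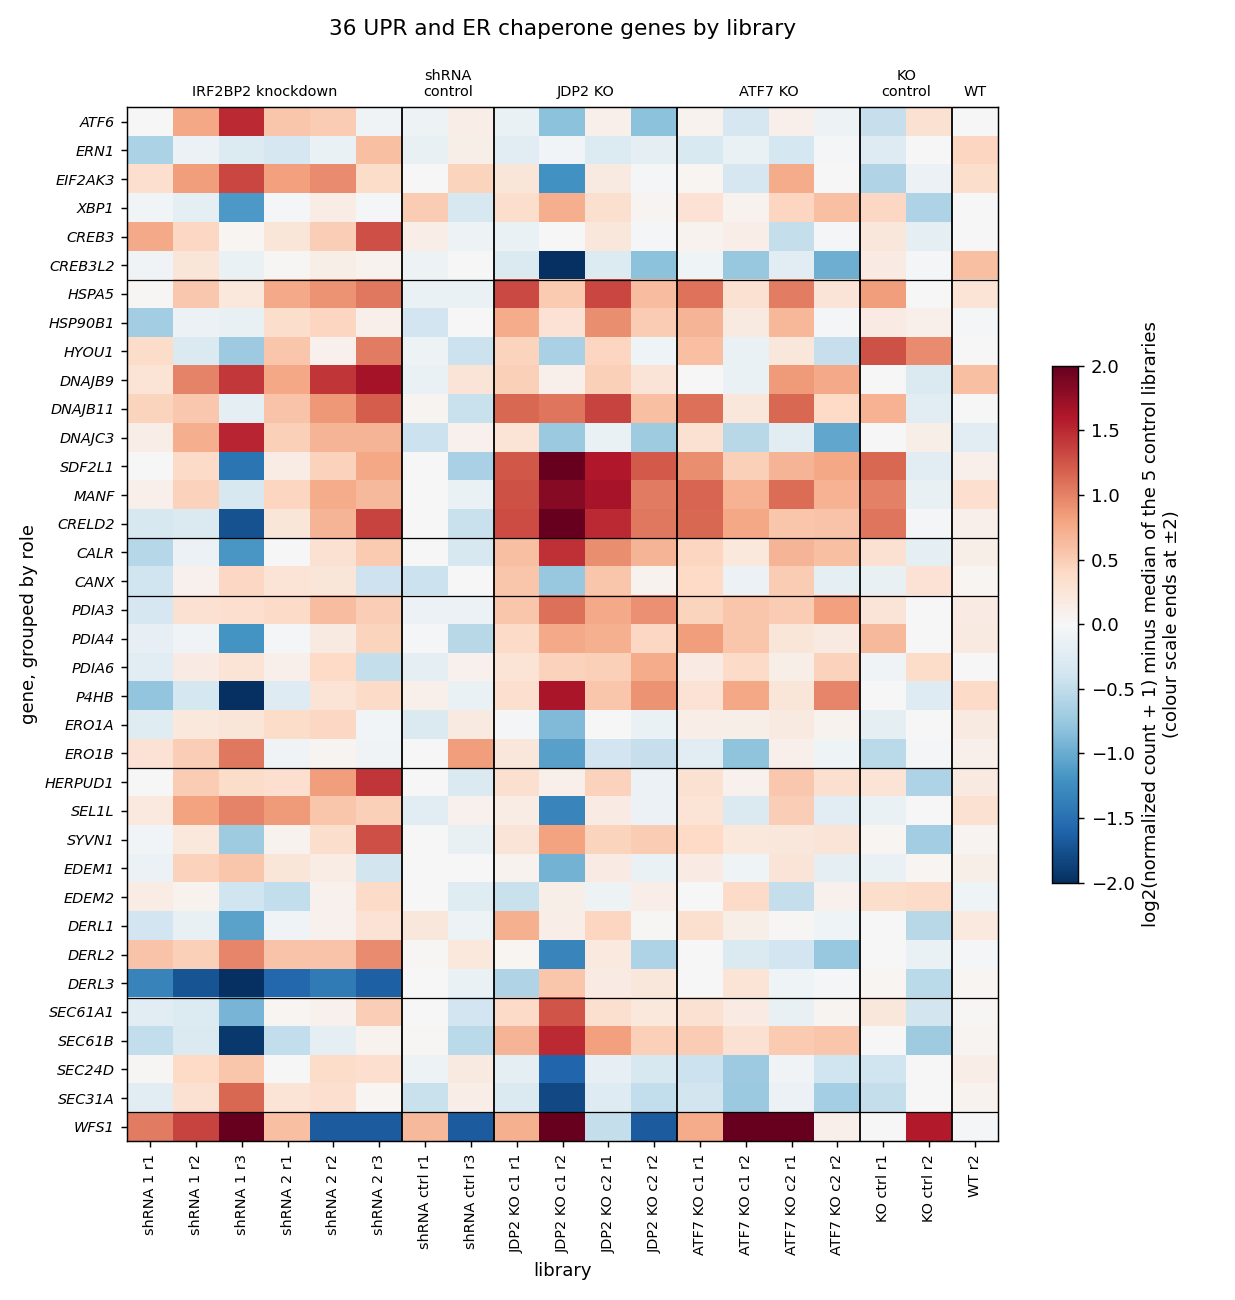
Colours give log2(normalized count + 1) minus the median of the 5 control libraries for the 36 genes (rows, by role) in all 19 libraries (columns, by group), and end at 2 on either side. DERL3 is blue in all 6 IRF2BP2 knockdown libraries, and SDF2L1, MANF and CRELD2 are red in all 4 JDP2 KO libraries. These genes are also above the control median in other libraries, among them all 4 ATF7 KO libraries and KO control replicate 1.

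JDP2 KO and ATF7 KO were also compared with each other, and limma called 0 of 36 members, with 0.0% of all genes called. Those with the lowest p were SDF2L1, with 4822, 11032, 6155 and 4763 normalized counts in JDP2 KO, against 3857, 2835, 3239.9 and 3474 in ATF7 KO, and CRELD2, with 5209.7, 11834, 5942 and 4395, against 4657, 3619, 3096 and 3139 in ATF7 KO. SDF2L1 did not overlap between the knockouts and CRELD2 did. The log2 differences were 0.92 with an interval of 0.19 to 1.64 and 0.82 with an interval of 0.10 to 1.55, each with an adjusted p of 0.999. Without JDP2 KO clone 1 replicate 2, which was the highest in both genes, they were 0.65 and 0.52. These were the 2 members with an unadjusted p under 0.05 in limma, beside 2.19% of all genes. By edgeR and DESeq2 0 were called, with 0.0% and 0.0687% of all genes called. Each also had 2 members at that p, beside 2.48% and 3.84% of all genes.

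The hairpins differed for some members, but not past the threshold. In limma 0 of 35 members were called between shRNA 2 and shRNA 1, with 0.0% of all genes called. At an unadjusted p under 0.05 there were 2 members, beside 7.20% of all genes. By edgeR and DESeq2 0 were called, with 0.0% and 0.196% of all genes called. At that p they had 2 and 6 members, beside 8.53% and 10.4% of all genes. With array weights 11 were called, among 3962 of all genes. CRELD2 had 2484, 3382 and 5376 normalized counts with shRNA 2, against 1689, 1719 and 630.2 with shRNA 1, a log2 difference of 1.54 with an SE of 0.43 and an adjusted p of 0.589. P4HB had 133421, 192283 and 208505 with shRNA 2, against 92634, 125088 and 37714 with shRNA 1, a difference of 1.20 with an SE of 0.54 and the same adjusted p. In both genes the hairpins did not overlap, and both ends were distant libraries: the lowest value was that of shRNA 1 replicate 3 and the highest that of the library labelled IRF2BP2 shRNA 2 replicate 3, in which IRF2BP2 was above its control. Without these libraries the differences were 0.77 for CRELD2 and 0.57 for P4HB, with adjusted p of 0.747 and 0.9996 in limma. DERL3 with shRNA 2, at 191, 212 and 182, fell within the range with shRNA 1, at 223, 171 and 34.5.

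Clones of 1 knockout were compared in the same way. Between ATF7 KO clone 2 and clone 1 limma called 0 of 36 members, with 0.303% of all genes called and 1 member at an unadjusted p under 0.05; edgeR and DESeq2 called 0, each with 1, and 0.197% and 1.66% of all genes. That member was DNAJB9, with a log2 difference of 0.87, an SE of 0.30 and an adjusted p of 0.462. At that unadjusted p were 6.62%, 6.01% and 8.02% of all genes in limma, edgeR and DESeq2. Between JDP2 KO clone 2 and clone 1 limma called 0 members, with 0.136% of all genes called. At an unadjusted p under 0.05 there were 0 members, beside 2.48% of all genes. By edgeR and DESeq2 0 were called, with 0.136% and 0.401% of all genes called. At that p they had 0 and 1 member, beside 2.67% and 4.07% of all genes. Without JDP2 KO clone 1 replicate 1 the count of calls between the JDP2 KO clones was 1, with 1.99% of all genes called.

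A direct test asked whether the knockdown's change from its control differed from the mean change of the knockouts from theirs. By limma 0 of 36 members were called, with 1.41% of all genes called. At an unadjusted p under 0.05 there were 4 members of 36, beside 17.1% of all genes. By edgeR 0 members were called, with 1.61% of all genes called, and 4 were at that unadjusted p, beside 17.7% of all genes. DESeq2 called DERL3 with 5.92% of all genes called. The difference was -2.20 for DERL3, 1.51 for HYOU1, 1.29 for DNAJC3 and -1.33 for SEC61B on the log2 scale, with adjusted p of 0.113, 0.174, 0.197 and 0.231. Without IRF2BP2 shRNA 1 replicate 3 DERL3 passed, at -1.79 with an adjusted p of 0.0255. Without all 3 distant libraries DERL3, at -1.69 with an adjusted p of 0.0142, and HYOU1, at 1.40 with an adjusted p of 0.0495, passed, with 4.84% of all genes called. Both KO control libraries, which enter this test, were among the 3 highest of the 19 libraries for HYOU1.

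**Figure D5:**
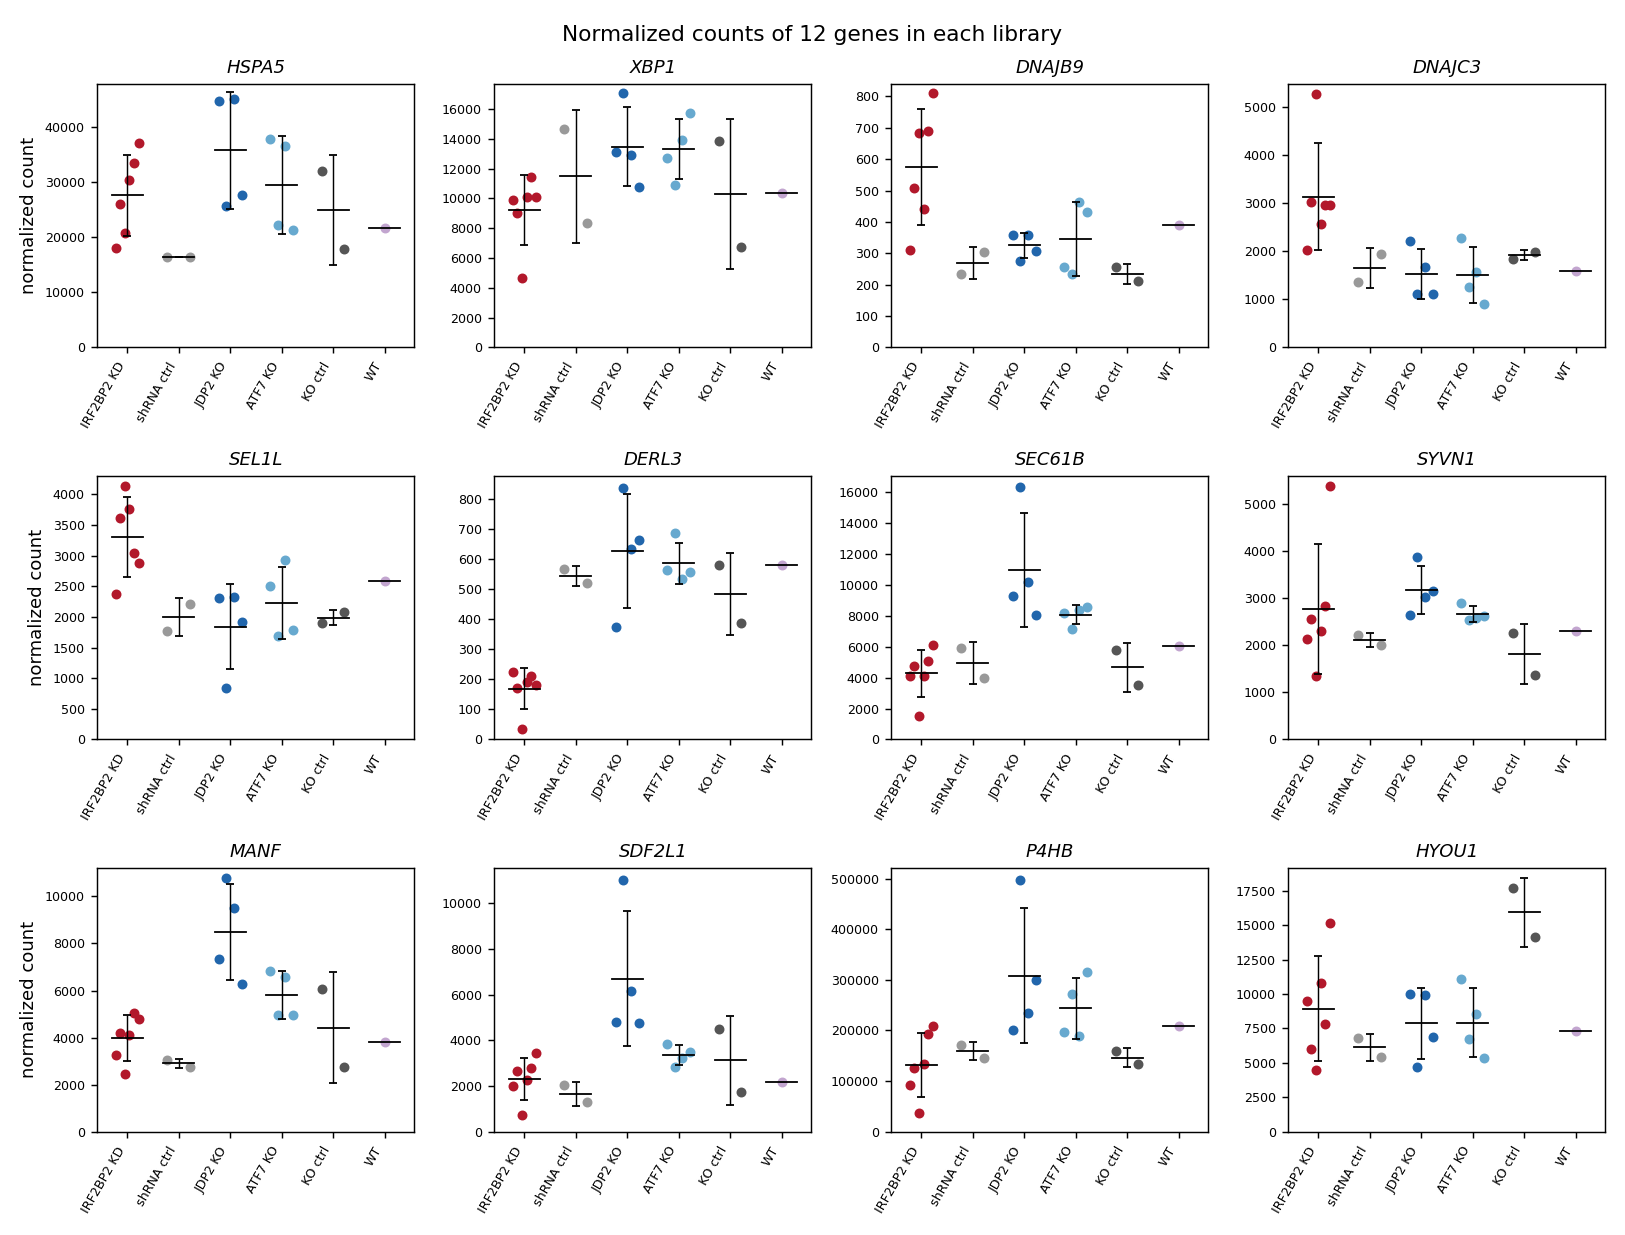
Normalized counts of 12 genes in each library (points) by group, with the mean and SD (lines) where a group has more than 1 library; axes start at 0. The 6 knockdown libraries of DERL3 lie between 34.5 and 223, below every other library, and the 2 KO control libraries of HYOU1 lie at 17715 and 14169.

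Other genes of the same routes were followed in 7 lists. Of 12 genes of the PERK and ATF4 arm, 0 were called in any of the 3 comparisons with the matched controls. Of the other sensors and related factors, CREB3L3, a membrane-bound factor known from liver, rose in the knockdown, 1 of 7 tested. It had 248, 291, 253, 77.7, 103 and 299 normalized counts in the knockdown, against 17.9 and 11.2 in the shRNA control, with no overlap, a log2 change of 3.63 with an SE of 0.55 and an adjusted p of 0.00562 in limma. The KO control at 6.52 and 19.7 and the wild type at 29.7 were also below every knockdown library. The closest library outside the knockdown was in ATF7 KO, at 75.9.

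Of 23 other chaperones and folding enzymes tested, SDF2, a relative of SDF2L1, fell in ATF7 KO. It had 146, 187, 162 and 232 normalized counts in ATF7 KO, against 590.1 and 549.7 in the KO control, a log2 change of -1.67 with an SE of 0.29 and an adjusted p of 0.0384 in limma. The wild type, at 189.7, lay within the ATF7 KO range, and the shRNA control stood at 292 and 321. In JDP2 KO, where it was not called, SDF2 had 176, 283, 196 and 236, also below both KO control libraries. Against all 5 control libraries 0 of these 23 genes were called in ATF7 KO, with 0.0231% of all genes called. SDF2 was also called for the knockdown effect against the knockout effect, at 2.47 with an adjusted p of 0.0261, in a test that uses the same KO control. Of 13 genes of the calnexin cycle and glycosylation tested, OST4, a small subunit of the oligosaccharyltransferase, fell in JDP2 KO. It had 559, 759, 536 and 565, against 1867 and 2517 in the KO control, a log2 change of -1.85 with an SE of 0.32 and an adjusted p of 0.0216 in limma. The wild type at 1072 and the shRNA control at 1648 and 1467 were also above all 4. In ATF7 KO, where it was not called, OST4 had 800, 951, 432 and 711, also below all 5 control libraries.

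Of 19 other genes of ER-associated degradation, 17 of the translocon, signal peptidase and signal recognition receptor and 10 of the COPII coat, 0 were called in these comparisons, with 0, 0 and 1 at an unadjusted p under 0.05 in the knockdown, 3, 5 and 4 in JDP2 KO and 1, 1 and 1 in ATF7 KO. The COPII coat had 1 of 10 genes above 0 in each knockout, with median log2 changes of -0.46 in JDP2 KO and -0.35 in ATF7 KO, and 7 of 10 in the knockdown. Its 2 members among the 36 genes had the same sign. SEC24D stood at -0.37 in JDP2 KO, -0.21 in ATF7 KO and 0.25 in the knockdown, and SEC31A at -0.48, -0.24 and 0.47. In JDP2 KO clone 1 replicate 2, a distant library, SEC24D had 1037 normalized counts and SEC31A 580. The other JDP2 KO libraries had 2733, 2793 and 2515 for SEC24D, within the KO control at 2382 and 3129. For SEC31A they had 1661, 1693 and 1443, against 1459 and 2033 in the KO control. Both genes, at 9920 and 9145 bases of exon, are in the longest class, where all genes had a median of -0.20 in JDP2 KO.

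Set against all 5 control libraries, where limma called 12.3% of all genes in the knockdown, the lists gave 5 higher and 2 lower genes there. Of the 12 genes of the PERK and ATF4 arm, the stress-induced ATF3 and PPP1R15A rose by 1.28 and 1.19 on the log2 scale and ASNS, which makes asparagine, fell by 0.72 (adjusted p of 0.0156, 0.0265 and 0.0448), with 6 of 12 above 0 and a median of 0.014. CREB3L3 rose by 3.54, TRAM1 of the translocon by 0.78 and SAR1B, the GTPase that starts COPII coats, by 0.83, while PDIA5, a disulfide isomerase, fell by 0.69 (adjusted p of 0.00015, 0.0217, 0.0299 and 0.0346). In the calnexin cycle and in ER-associated degradation 0 were called.

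In JDP2 KO, where 7.08% of all genes were called, the lists gave 8 higher and 6 lower genes against all 5 control libraries. The thioredoxin-like proteins TXNDC5, TXNDC11 and TXNDC12 rose by 2.38, 0.76 and 0.58 on the log2 scale (adjusted p of 0.0238, 0.0303 and 0.0496), 3 of 23 other chaperones and folding enzymes. For TXNDC5 the groups overlapped. KO control replicate 1 stood at 1080 normalized counts, above JDP2 KO clone 2 replicate 1 at 992, with the other control libraries at 134 to 458. SELENOS and VCP, which act in the extraction of misfolded proteins, rose by 0.77 and 0.71, SEC11C and SPCS1 of the signal peptidase by 0.96 and 0.80, and CEBPB, a transcription factor, by 1.29 (adjusted p of 0.0245, 0.0354, 0.0291, 0.0428 and 0.0278). Of 10 genes of the COPII coat, SEC31B, SEC13 and SEC23B fell by 1.53, 1.62 and 0.58, and 0 of 10 were above 0. OST4 fell by 1.46, and the ER-bound transcription factors ATF6B and CREB3L4 fell by 1.55 and 1.23 (adjusted p of 0.0238, 0.0260, 0.0497, 0.0101, 0.0411 and 0.0476 for these 6 genes in that order). In ATF7 KO clone 2, SEC13 had 1775 and 2467 normalized counts and ATF6B 3192 and 6268, below all 5 control libraries. ATF7 KO clone 1 had 8152 and 7047 for SEC13, also below all 5 control libraries, the lowest of which stood at 8221. For ATF6B clone 1 had 13427 and 15591, within the range of the control libraries at 9806 to 15996. In ATF7 KO 0 genes of any list were called against all 5 control libraries, with 0.0231% of all genes called.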

How the data were processed

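RNA-seq libraries of THP1 cells were compared as grouped by the labels. Per the submitters' processing notes, reads were mapped to hg38, counted with featureCounts and processed with DESeq2; versions and strandedness of counting were not stated there. The authors deposited 1 table of normalized counts per gene, a signal scaled by size factors, for 19 libraries, and tables of their own comparisons with log2 fold changes, p-values and a Wald score. The deposited Wald score has the sign opposite to the deposited log2 fold change in 100% of genes, so the score was not used. All 19 columns were mapped, 0 were left over, and 2 libraries that the labels call low quality were not analysed here.

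Whole reads were recovered from the steps of the deposited counts (100% of values whole within 0.01), giving 28650241 to 60196382 reads per library. Intervals are 95% confidence intervals of the log2 change, from the moderated SE in limma. The main test was limma 3.58.1 with a trended prior in R 4.3.3 on log2(count + 1), for genes with a mean of at least 10, with Benjamini-Hochberg adjustment over all genes tested and a threshold of 0.05; fold changes on this scale understate changes of low genes. edgeR 4.0.16 and DESeq2 1.42.0 on the recovered reads, other scalings, pseudocounts and filters, array weights, and fits without single or distant libraries were alternatives. The fits were tested on simulated data.

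The 36 members and all lists were chosen with earlier results of these data known. Values in every library are given for HSPA5, XBP1, ATF6, ERN1 and EIF2AK3 and for the 4 members with the lowest p in each comparison with matched controls; genes of other lists are named where called, up to 4 per list by lowest p, and other members by counts, ranges or examples chosen after their values were seen. Promoters came from RefSeq; tests of different comparisons that share controls are not independent. Paralogs such as SDF2 and SDF2L1 or the derlins could exchange reads. Figures and motif searches used Python 3.11.15.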

Additional observations from a re-analysis of the deposited data

Results flagged for a closer look

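In 11 of 108 groups of values, each a member within the IRF2BP2 knockdown, ATF7 KO or JDP2 KO libraries, 1 library lay far from the others. The cutoff would flag about 1 in 20 groups of independent, normally distributed values. Members share libraries and their counts were not put on a log scale, so that rate is no yardstick here. Of the 11 flagged groups, 10 were flagged for 1 of the 3 distant libraries, and no explanation was tested. The library labelled IRF2BP2 shRNA 2 replicate 3 was highest in the knockdown for the sensor gene ERN1, at 1351 normalized counts, and for the ubiquitin ligase gene SYVN1, at 5382. IRF2BP2 shRNA 1 replicate 3 was lowest for XBP1, at 4686, and for DERL3, at 34.5. It was highest for DNAJC3, at 5272, for the COPII coat gene SEC31A, at 4524, and for WFS1, at 30.9. JDP2 KO clone 1 replicate 2 was highest in JDP2 KO for the translocon gene SEC61A1, at 25202, and for WFS1, at 35.4, and lowest for the COPII coat gene SEC24D, at 1037. ATF7 KO clone 2 replicate 1 stood at 107.6 for WFS1, against 13.0 in the next library of ATF7 KO.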

How the results depend on the processing

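Over the alternatives run, 941 values of named members kept their direction and side of the threshold, 41 came to pass it, 53 no longer passed it and 26 changed sign; the cause was not tested. Of the medians, 168 moved by less than the spread and 17 by more, and of the counts 435 stayed within 1.5 times and 155 did not. With 2 control libraries an arm, no depth setting replaces replicates: reads in genes ranged from 28650241 to 60196382, and counting error is small for all members but WFS1. Counts of genes called by limma were 228 in the knockdown, 33 in ATF7 KO and 89 in JDP2 KO against the matched controls, 0 between the knockouts, 0 between the hairpins, 40 between the ATF7 KO clones, 18 between the JDP2 KO clones and 184 for the knockdown effect against the knockout effect, and 1561, 3 and 919 in the knockdown, ATF7 KO and JDP2 KO against all 5 controls.

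With edgeR the knockdown had 124 genes called and the ATF7 KO clones 26, and ATF6 in ATF7 KO stood at -0.0020. With DESeq2 the genes called were 682 in the knockdown, 223 in ATF7 KO, 526 in JDP2 KO, 9 between the knockouts, 25 between the hairpins, 219 between the ATF7 KO clones, 53 between the JDP2 KO clones and 727 for the knockdown effect against the knockout effect, with 1, 0, 2, 0, 0, 0, 0 and 1 members called; ATF6 in ATF7 KO stood at -0.012. With array weights the genes called were 1514 in the knockdown with 6 members, 185 in JDP2 KO with 1 member, 4 between the knockouts, 3962 between the hairpins with 11 members, 143 between the ATF7 KO clones and 562 for the knockdown effect against the knockout effect with 1 member; the members' median was 0.19 between the knockouts and 0.16 between the hairpins, and ATF6 stood at 0.089 in JDP2 KO and -0.040 in ATF7 KO.

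Without the 3 distant libraries the genes called were 1251 in the knockdown with 2 members, 98 in ATF7 KO, 1 between the hairpins, where the members' median was 0.23, 198 between the ATF7 KO clones, 616 for the knockdown effect against the knockout effect with 2 members, and, against all 5 controls, 20 in ATF7 KO and 277 in JDP2 KO with 5 members. Against all 5 controls instead of the matched ones, 5 members were called in the knockdown and 8 in JDP2 KO, ATF6 in ATF7 KO stood at -0.039 and EIF2AK3 in JDP2 KO at -0.22. Without the distant libraries that setting, chosen after seeing the data, gave 2130 genes and 6 members in the knockdown, and ATF6 in ATF7 KO again at -0.039. Centred on exon length, also chosen after seeing the data, 67 genes were called in ATF7 KO and 137 in JDP2 KO, with ERN1 at 0.21 in JDP2 KO and 0.059 in ATF7 KO. With that centring and all 5 controls, 1704 genes and 7 members were called in the knockdown, where the members' median was 0.099, 11 genes in ATF7 KO, with ATF6 at -0.012, and 862 genes and 8 members in JDP2 KO, with ERN1 at 0.0046 and EIF2AK3 at -0.19. With all 19 libraries in 1 fit, added later too, 380 genes and 1 member were called in the knockdown, 0 genes in ATF7 KO and 4 between the knockouts. Without a filter on low values 19 genes were called in ATF7 KO, 53 in JDP2 KO, 22 between the ATF7 KO clones and 79 for the knockdown effect against the knockout effect. With quantile normalization the members' median was 0.12 in JDP2 KO and 0.14 between the hairpins, ERN1 stood at 0.051 in JDP2 KO and 0.011 in ATF7 KO, and 1 member was higher without overlap in the knockdown against all 5 controls.

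Same-numbered libraries did not deviate together throughout: over 7 pairs in the knockdown arm the correlation of their deviations ran from -0.31 to 0.37, with 3 over 0.1, and over 10 distinct pairs in the knockout arm, where 2 libraries a group give each correlation 2 times, from -0.53 to 0.57, with 5 over 0.1. The libraries share only a number, and the block is given for its counts. With the replicate block 209 genes were called in the knockdown, 74 in ATF7 KO, 161 in JDP2 KO, 0 between the knockouts, 0 between the hairpins, 93 between the ATF7 KO clones, 21 between the JDP2 KO clones and 666 for the knockdown effect against the knockout effect, which had 1 member called where the others had 0.

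Leaving out 1 library at a time, the genes called ranged from 11 to 609 in the knockdown, 0 to 98 in ATF7 KO, 0 to 125 in JDP2 KO, 0 to 1 between the hairpins, 17 to 198 between the ATF7 KO clones, 12 to 266 between the JDP2 KO clones and 0 to 294 for the knockdown effect against the knockout effect, and against all 5 controls from 849 to 2171 in the knockdown, 0 to 20 in ATF7 KO and 99 to 1510.0 in JDP2 KO. Members called ranged from 0 to 1 in the knockdown, between the JDP2 KO clones and for the knockdown effect against the knockout effect, and against all 5 controls from 1 to 7 in the knockdown and 0 to 10 in JDP2 KO. The members' median ranged from 0.052 to 0.35 in ATF7 KO, 0.11 to 0.35 in JDP2 KO, 0.26 to 0.57 between the hairpins, -0.13 to 0.16 between the ATF7 KO clones, -0.069 to 0.16 between the JDP2 KO clones and 0.00087 to 0.21 for the knockdown effect against the knockout effect. XBP1 ranged from -0.72 to 0.092 in the knockdown, -0.070 to 0.97 in ATF7 KO and -0.060 to 0.98 in JDP2 KO, ERN1 from -0.28 to 0.0057, -0.20 to 0.062 and -0.18 to 0.083, ATF6 from -0.37 to 0.40 in ATF7 KO and -0.72 to 0.053 in JDP2 KO, HSPA5 from -0.17 to 0.67 in ATF7 KO and EIF2AK3 from -0.092 to 0.49 in JDP2 KO. Members higher without overlap ranged from 6 to 12 in the knockdown, 5 to 18 in ATF7 KO and 10 to 18 in JDP2 KO, and against all 5 controls from 2 to 6, 3 to 8 and 7 to 12. Members lower ranged from 1 to 2, 2 to 6 and 3 to 8, and against all 5 controls from 0 to 2 in ATF7 KO and 1 to 2 in JDP2 KO. Pseudocounts of 0.5 and 8 and TMM scaling changed no count of called members.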

Other observations

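In the knockout arm several members differed between libraries of the same cells by library number. In each of the 4 clones and in the KO control, 9 of 36 members (CREB3L2, HSPA5, HSP90B1, HYOU1, DNAJB9, DNAJB11, HERPUD1, DERL1 and DERL2) were higher in replicate 1 than in replicate 2, where 9.98% of all genes were. The 3 members ERN1, PDIA6 and EDEM2 were lower in replicate 1 in all 5, where 8.62% of all genes were. The labels do not say what the numbers stand for, and these counts carry no test.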
